A study of Mus musculus with 7 samples.

Results

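Conventional dendritic cells of mouse bone marrow were picked out of 7 single-cell RNA-seq libraries by the unique molecular identifiers (UMIs, each standing for 1 captured mRNA molecule) of a few genes. A cell was taken when it held at least 2 UMIs of Cd209a, Xcr1 and Clec9a together and at least 1 of H2-Ab1, no UMI of Siglech or Cd79a, fewer than 4 of C1qa, C1qb and C1qc together, and fewer than 3 of Ccl22, Shisa8 and Ly6k together. This gate took 607 of 54669 kept cells (1.11%), where a kept cell had at least 300 detected genes and under 10% mitochondrial UMIs. The levels of the gate genes chose the cells and are given below only as descriptions.

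Conventional dendritic cells take up antigen, process it and present the peptides to T cells on MHC molecules, and they arise in the marrow from progenitors that need the cytokine receptor Flt3. They fall into a type 1 lineage, built by Irf8, Batf3 and Id2 and marked by the chemokine receptor Xcr1 and the dead-cell receptor Clec9a, which excels at presenting antigen on class I MHC to CD8 T cells, and a type 2 lineage, which depends more on Irf4 and Klf4, carries Sirpa and lectins such as Clec10a and Cd209a, and shares much of its programme with monocytes. Interferon gamma induces the class II transactivator Ciita, the immunoproteasome and the chemokine Cxcl9 in such antigen-presenting cells.

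The libraries came from whole marrow of spine, hips, femur and tibia after lysis of red cells, with several samples marked by hashtag antibodies in each of 4 pools (WBM_1, WBM_2, WBM_3 and WBM_4). Of the 20 hashtag samples, HRO.5 and HRO.6 are described in the series' design as chronic with mutated TET2 (chronic below), and the others are HRO.7 to HRO.12, HRY.4 to HRY.6, HR.7, HR.AE, WTO.3 to WTO.6 and WTY.3 to WTY.5. The sources used here do not explain the prefixes, nor do they give alleles, agents or ages, so the names stand as deposited. Whether each hashtag marks its own mouse is also not given, and p-values measure only the spread between hashtag samples. WBM_1 held both chronic samples with HRY.4, WTO.3 and WTY.3. WBM_2 held HR.AE with HRO.7 to HRO.9 and WTO.4. WBM_3 held HRO.10, HRY.5, HRY.6, HR.7, WTY.4 and WTY.5, and WBM_4 held HRO.11, HRO.12, WTO.5 and WTO.6. The libraries held 25343305 to 95553827 UMIs, and 2078 cell barcodes were shared by both libraries of WBM_3, of which the copy with fewer UMIs was dropped; the next pair of libraries shared 51. Of the 607 cells, 460 carried 1 hashtag and could be given to a sample, 128 carried more than 1 and 19 carried none; cells with more than 1 hashtag made up 21.1% of the gated cells and 16.8% of all kept cells.

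The gated cells carried the markers of their label. Flt3 had a UMI in 64.1% of the 607 cells, against 8.76% of 9411 monocytes picked by at least 1 UMI of Csf1r and 2 of Ly6c2 and Ccr2 together, with no UMI of Cd209a, Xcr1 or Clec9a, Itgax (the integrin CD11c) in 35.3% against 2.25%, and Zbtb46, a transcription factor of this lineage, in 37.2% against 0.712%, at median depths of 8433 and 8097 UMIs per cell. Flt3 had a UMI in 33.7% of the 252 cells just outside the gate with 1 UMI of Cd209a, Xcr1 and Clec9a. The share was 42.7% in the 117 cells just inside it with 2, and 88.4% in the 164 cells with 10 or more. These 3 classes had median depths of 7624.5, 4832 and 20488 UMIs, and the part of depth in the Flt3 shares was not tested. The monocyte gene Ly6c2 had a UMI in 75.4%, 56.4% and 76.2% of the same classes. It had one in 61.6% of all gated cells and 94.0% of the monocytes. Xcr1 had UMIs in 256 cells, Clec9a in 311 and both in 227, while Cd209a had UMIs in 296, and 29 cells held UMIs of both kinds. The cells therefore split into 314 with more UMIs of Xcr1 and Clec9a (Xcr1/Clec9a cells), 288 with more of Cd209a (Cd209a cells) and 5 ties. Flt3, Itgax and Zbtb46 had a UMI in 81.2%, 51.9% and 62.7% of Xcr1/Clec9a cells and 45.8%, 17.4% and 9.72% of Cd209a cells. In plasmacytoid dendritic cells the shares were 51.8%, 22.7% and 2.03%, so Flt3 and Itgax did not set the Cd209a cells apart from these. Median depths were 16752.5, 3511.5 and 4320 UMIs, and the part of depth was not tested. Xcr1 lies at chr9:123852315-123862029, Clec9a at chr6:129408862-129424763 and Cd209a at chr8:3743397-3748984 (GRCm38).

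Many Xcr1/Clec9a cells held proliferation transcripts, and few held Ccr7. The gate left out cells with 3 or more UMIs of Ccl22, Shisa8 and Ly6k, and Ccl22 marks mature, migrating dendritic cells, so the scarcity of such cells is set in part by the gate. Ccr7, the receptor that guides mature dendritic cells to lymph nodes, had a UMI in 0.318% of Xcr1/Clec9a cells, against 0.191% of monocytes and 4.06% of 591 plasmacytoid dendritic cells. Mki67, made by dividing cells, had a UMI in 65.3% of Xcr1/Clec9a cells and 20.5% of Cd209a cells, against 51.6% of monocytes. The median depths were 16752.5, 3511.5 and 8097 UMIs in these classes, and the part of depth in these shares was not tested.

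The cells were unevenly spread over the samples, and the subsets more so. HRO.7 gave 141 gated cells of 5530 (2.55%) and HRO.8 gave 52 of 2505 (2.08%), and every one of these 193 was an Xcr1/Clec9a cell. HRO.9 gave 8 of 4831 (0.166%), HRO.10 gave 1 of 1744 (0.0573%), HRO.11 gave 3 of 1564 (0.192%) and HRO.12 gave none of 1223, which allows a share of up to 0.245%. The 6 HRO samples thus ran from 0 to 2.55%, and HRO.7 and HRO.8 stood above the other HRO samples. The chronic samples HRO.5 and HRO.6 had 1.29% and 1.34%, nearly all of them Cd209a cells (14 of 15 and 38 of 42).

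In HRY.4, HRY.5 and HRY.6 the shares were 0.529%, 0.362% and 0.552%. In WTO.3, WTO.4, WTO.5 and WTO.6 they were 1.18%, 0.464%, 0 (up to 0.301%) and 0.318%, and in WTY.3, WTY.4 and WTY.5 they were 0.692%, 1.83% and 1.84%. Cd209a cells made up 23 of the 24 HRY cells, 29 of the 33 WTO cells and 60 of the 66 WTY cells. HR.7 was the sample with both subsets in number, 35 Xcr1/Clec9a and 38 Cd209a cells among 75 of 2803 (2.68%), and HR.AE gave none of 1401 (up to 0.214%). Thus 228 of the 249 Xcr1/Clec9a cells with a sample came from HRO.7, HRO.8 and HR.7.

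**Figure D1:**
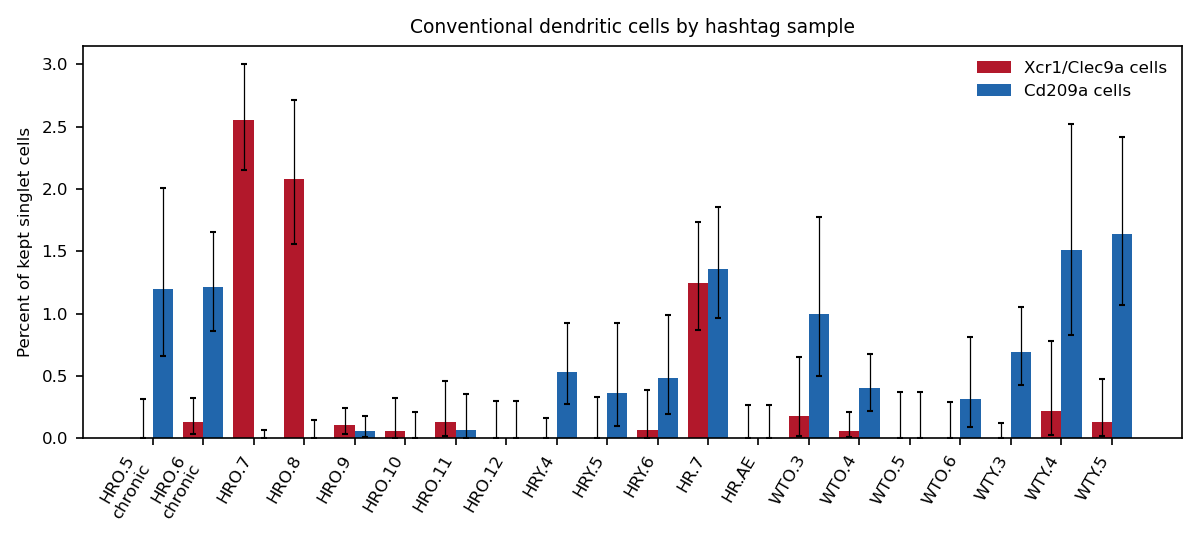
Percent of kept cells with 1 hashtag that were Xcr1/Clec9a cells (red) or Cd209a cells (blue) in each of the 20 hashtag samples, with 95% Clopper-Pearson intervals that cover counting error only. Red bars stand out in HRO.7 (2.55%), HRO.8 (2.08%) and HR.7 (1.25%), while blue bars are absent from HRO.7 and HRO.8 and reach 1.64% in WTY.5.

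No difference between groups in the share of gated cells passed its test, an exact two-sided permutation test over hashtag samples with Benjamini-Hochberg adjustment over the 8 tests that could be run. The share averaged 0.840 ± 1.15% in HRO and 0.489 ± 0.497% in WTO (SD, n = 6 and 4; exact p = 0.586, adjusted p = 0.669). It averaged 0.481 ± 0.104% in HRY and 1.45 ± 0.660% in WTY (SD, n = 3 each), where every HRY sample lay below every WTY sample and the exact p of 0.1 is the smallest this design allows (adjusted p = 0.457). The chronic samples averaged 1.31 ± 0.0365% (SD, n = 2) against HRO (exact p = 0.5), and the exact p was 0.726 for HRO against HRY and 0.114 for WTO against WTY. Within pools, HRO averaged 1.60% and WTO 0.464% in WBM_2, but 0.0959% and 0.159% in WBM_4, so the order of the groups differed between pools. HRY lay below WTY in both pools that held them, with 0.529% against 0.692% in WBM_1 and 0.457% against 1.84% in WBM_3. Among samples with at least 10 gated cells, Xcr1/Clec9a cells were 100% of the gated cells in both HRO samples and 13.9 ± 2.04% in WTO (SD, n = 2 each; exact p = 0.333, the smallest possible).

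Depth differed between samples. The gated cells had a median of 18219 UMIs in HRO.7 and 19797.5 in HRO.8, against 7351.5 in WTO.4 of the same pool. Scrublet, a doublet caller, marked 17 of the 607 gated cells and 0 of the 193 from HRO.7 and HRO.8. After every cell was thinned to 1500 UMIs, the share was 0.634% in HRO.7 and 0.746% in HRO.8, still all Xcr1/Clec9a cells, 1.43% and 0.975% in the chronic samples, 1.36% in HR.7, 1.65% in WTO.3 and 0.131% in WTO.4. The mean difference between HRO and WTO then turned negative (-0.21 percentage points).

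Cd209a was also scarce outside the gate in HRO.7 and HRO.8. Over all kept cells, Cd209a gave 0.0714 and 0.0421 UMIs per 1000000 in HRO.7 and HRO.8, 0 to 0.681 in the other 4 HRO samples, 26.7 and 17.5 in the chronic samples, 10.7 in HR.7, 27.0, 6.33, 0.335 and 6.06 in the WTO samples and 12.7 to 32.1 in WTY. All 6 HRO samples were thus low in Cd209a, as was WTO.5, and the remaining WTO, WTY, HRY and chronic samples were higher. In such sums, fewer cells with the transcript and less of it per cell cannot be told apart. A second gate that does not use Cd209a, chosen after the data were seen (at least 2 UMIs of the type 2 lectins Clec10a and Mgl2, at least 1 of Flt3, Itgax and Zbtb46, and none of Xcr1 or Clec9a), found 16 cells in HRO.7 (0.289%) and 3 in HRO.8 (0.120%). These 19 cells held no Cd209a UMI, whereas the cells of this gate in the other samples averaged 368 CPM of Cd209a (counts per 1000000 UMIs). Cd209a UMIs were also absent from the cells of this gate in WTO.4 (0 of 2), WTO.5 (0 of 2), HRO.11 (0 of 4), HRO.12 (0 of 1) and HR.AE (0 of 1), and 2 of 10 had one in HRO.9, against 5 of 7 in HRO.5, 11 of 15 in HRO.6, 11 of 19 in HR.7, 5 of 5 in WTO.6, 11 of 13 in WTY.3 and 14 of 14 in WTY.5. The same 19 cells had 2530.1 CPM of Ly6c2 and 43.7 CPM of Flt3, against 696 and 156 CPM in the other samples.

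The Xcr1/Clec9a and Cd209a cells differed in the genes that define type 1 and type 2 dendritic cells. In an edgeR quasi-likelihood fit on UMIs summed per sample and subset (3 samples of Xcr1/Clec9a cells, 9 of Cd209a cells, pool as a term, HR.7 held out), 166 of 1167 genes passed an adjusted p of 0.05 (14.2%), 62 higher and 104 lower in the Xcr1/Clec9a cells. Of the type 1 list, 9 of 10 tested genes were higher and none lower (median log2 fold change 3.23, against 3.19e-04 over all genes), and of the type 2 list 11 of 16 were lower and none higher (median -2.76). A gene could pass the filter on low counts through the subset where it is high alone. These counts and medians, and the list counts of this fit below, therefore describe the genes, and nothing is read from their one-sidedness. The 3 samples of Xcr1/Clec9a cells are HRO.7, HRO.8 and HRO.9 of WBM_2, where the Cd209a cells come from WTO.4 alone (14 cells). With pool as a term, each fold change therefore sets these 3 samples against WTO.4. The Cd209a samples of other pools add only to the estimate of spread. A fold change below thus need not match the range and median over the 9 Cd209a samples printed beside it. Subset and group cannot be told apart in this fit. The split used only Cd209a, Xcr1 and Clec9a, which get no test.

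Among the transcription factors, Id2 had 1142, 1142 and 1729 CPM in the Xcr1/Clec9a cells of HRO.7, HRO.8 and HRO.9, against 25.5 to 312 CPM (median 138) in the Cd209a cells of the 9 samples (log2 fold change ± SE 5.75 ± 0.68, adjusted p = 1.21e-04, the form used below). Irf8 had 2493, 2315 and 2411 CPM in the Xcr1/Clec9a cells of HRO.7, HRO.8 and HRO.9, against 67.6 to 779 CPM (median 130.2) in the Cd209a cells of the 9 samples (2.91 ± 0.64, adjusted p = 0.00821). The subsets did not overlap in either gene. Batf3 was higher as well (2.55 ± 0.59, adjusted p = 0.0115). On the other side, Zeb2, a repressor that favours the type 2 lineage, had 81.5, 51.3 and 0 CPM in the Xcr1/Clec9a cells of HRO.7, HRO.8 and HRO.9, against 158 to 1306 CPM (median 338) in the Cd209a cells of the 9 samples (-3.05 ± 0.48, adjusted p = 9.25e-04), and Klf4 was lower (-1.91 ± 0.60, adjusted p = 0.0438). Irf4 was not among the genes tested, and it had 1.52, 0 and 0 CPM in the Xcr1/Clec9a cells against 30.7 to 130.2 CPM in the Cd209a cells.

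The genes of antigen handling and the surface lectins parted in the same samples. Wdfy4, needed for cross-presentation, had 695, 646 and 523 CPM in the Xcr1/Clec9a cells of HRO.7, HRO.8 and HRO.9, against 0 to 125 CPM (median 67.6) in the Cd209a cells of the 9 samples (2.61 ± 0.50, adjusted p = 0.00315). Cst3, the protease inhibitor cystatin C, had 21659, 22692 and 13784 CPM in the Xcr1/Clec9a cells of HRO.7, HRO.8 and HRO.9, against 2499.8 to 4238 CPM (median 3623) in the Cd209a cells of the 9 samples (2.46 ± 0.39, adjusted p = 9.68e-04). Both genes were higher in every Xcr1/Clec9a sample than in every Cd209a sample. The lysosomal enzymes Naaa (3.55 ± 0.72, adjusted p = 0.00548) and Ppt1 (5.41 ± 0.84, adjusted p = 8.56e-04), the small GTPase Rab7b (5.16 ± 0.72, adjusted p = 0.00114) and the DNA-sensor family member Ifi205 (5.15 ± 0.76, adjusted p = 0.00169) were higher as well. The RNA sensor Tlr3 was not tested, with 198, 222 and 114 CPM in the Xcr1/Clec9a cells and 0 in 7 of the 9 Cd209a samples.

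The genes lower in the Xcr1/Clec9a cells included 11 of the type 2 list, 4 of the monocyte list and the granule genes Mpo and Elane. Sirpa, an inhibitory receptor that binds CD47, had 12.5, 19.1 and 0 CPM in the Xcr1/Clec9a cells of HRO.7, HRO.8 and HRO.9, against 97.6 to 553 CPM (median 184) in the Cd209a cells of the 9 samples (-3.36 ± 0.52, adjusted p = 8.56e-04). Clec10a had 8.34, 5.03 and 22.7 CPM in the Xcr1/Clec9a cells of HRO.7, HRO.8 and HRO.9, against 162 to 1388 CPM (median 553) in the Cd209a cells of the 9 samples (-4.27 ± 0.76, adjusted p = 0.00209). The fractalkine receptor Cx3cr1 (-4.03 ± 0.39, adjusted p = 2.66e-05), the integrin Itgam (CD11b, -4.92 ± 0.71, adjusted p = 4.95e-04), the growth factor receptor Csf1r (-2.62 ± 0.63, adjusted p = 0.0137) and the lectin Clec4a1 (-6.09 ± 1.08, adjusted p = 0.00209) were lower too. Of 7 tested monocyte markers, 4 (Fn1, F13a1, Csf1r and Ms4a6c) were lower and none higher, and the summed level of the 10 monocyte markers was 1123 to 1718 CPM in 4 Xcr1/Clec9a samples and 2929 to 6882 CPM in 10 Cd209a samples, with all 10 markers detected; the part of these markers in the result was not tested. Markers common to both lineages did not separate the subsets in one direction: Btla, a checkpoint receptor, was higher (2.98 ± 0.52, adjusted p = 0.00183), Bcl11a was lower (-1.25 ± 0.35, adjusted p = 0.0256), and Flt3, which was not among the genes tested, ran from 117 to 136 CPM in the Xcr1/Clec9a cells and from 72.5 to 402 CPM in the Cd209a cells.

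**Figure D2:**
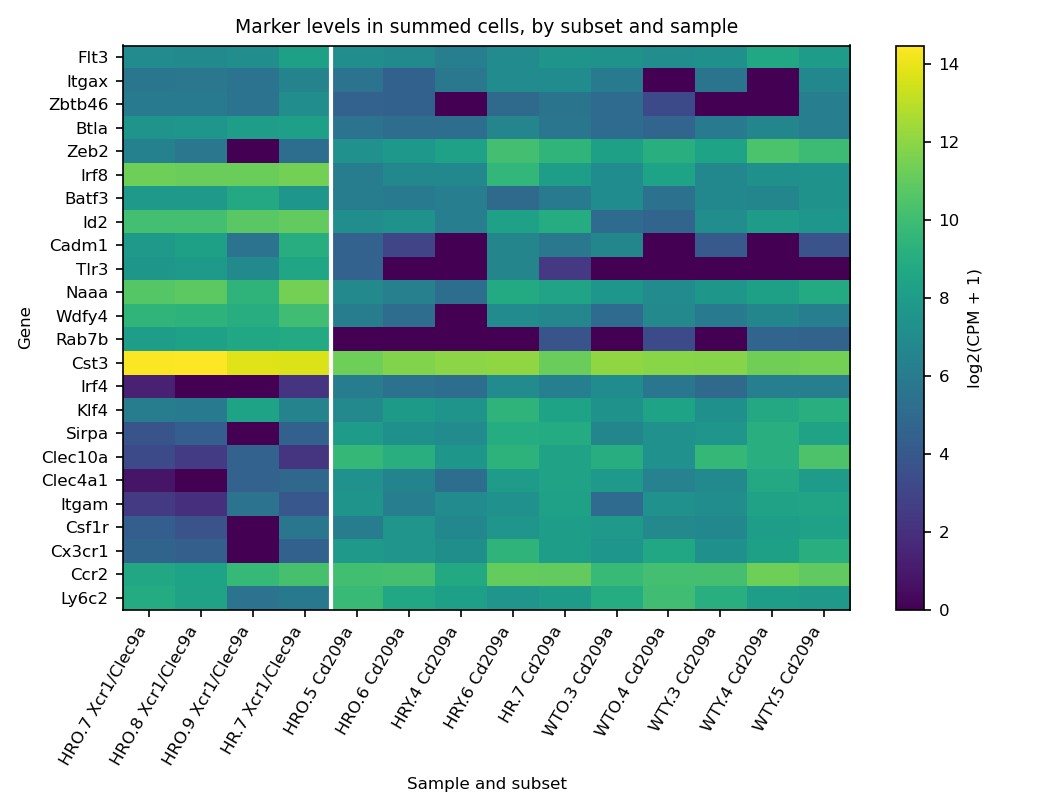
Levels, as log2(CPM + 1), of 24 lineage genes in cells summed per sample, with 4 samples of Xcr1/Clec9a cells left of the white line and 10 samples of Cd209a cells right of it. Irf8, Id2, Naaa, Wdfy4, Rab7b and Cst3 are brighter on the left, and Irf4, Sirpa, Clec10a, Itgam and Cx3cr1 are brighter on the right, while Flt3 is similar on both sides.

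HR.7, which took no part in that fit, held both subsets in 1 sample and so sets them side by side within 1 pool and group. Of the 165 genes that passed and had at least 10 UMIs in HR.7, 55 of 62 higher genes and 98 of 103 lower genes had the same sign there (92.7%), against 661 of 999 genes that did not pass (66.2%). Irf8 had 2813 CPM in the Xcr1/Clec9a cells and 264 CPM in the Cd209a cells of HR.7, Id2 2025 and 499 CPM, and Naaa 2809 and 348 CPM. Sirpa had 21.5 CPM in the Xcr1/Clec9a cells against 469.7 CPM in the Cd209a cells, and Clec10a had 3.58 against 327 CPM. These are values of 1 sample with no replicate. The neutrophil markers summed to 776 CPM in the Xcr1/Clec9a cells and 18235 CPM in the Cd209a cells of HR.7, and the erythroid markers to 2054 and 533 CPM; their part in these values was not tested.

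The 7 higher genes that did not keep their sign in HR.7 were Pim1, Psmb3, Psmb2, Jun, AY036118, H2-Eb1 and H2-Aa. The class II chain H2-Aa had 5632 CPM in the Xcr1/Clec9a cells and 6408 CPM in the Cd209a cells of HR.7, whereas the fit gave a log2 fold change of 1.19 ± 0.37, adjusted p = 0.0425. The 5 lower genes that did not keep it were Iqgap2, Ppp3ca, Ifngr1, Higd2a and Tmed3. Ifngr1, the interferon gamma receptor chain, had 562 and 336 CPM in HR.7, against a log2 fold change of -1.57 ± 0.40, adjusted p = 0.0183 in the fit.

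**Figure D3:**
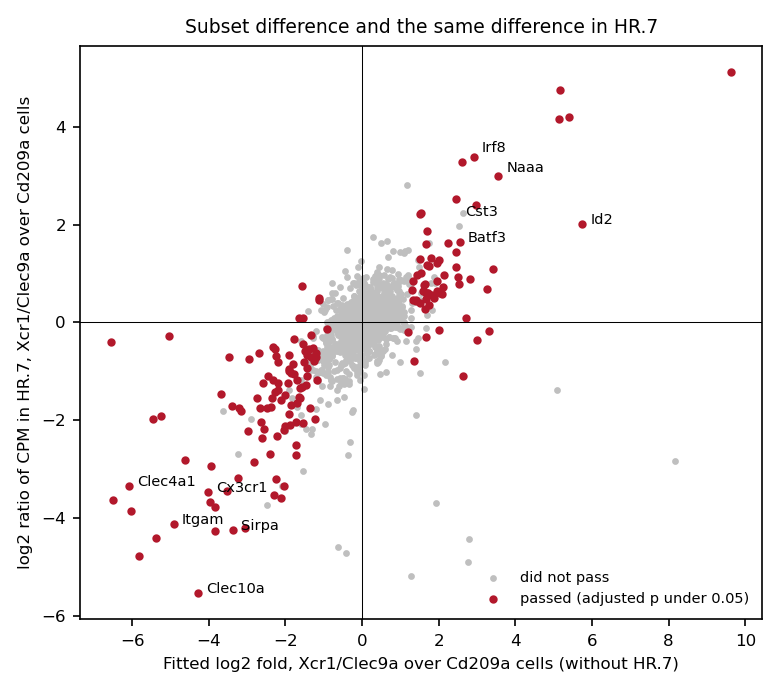
Fitted log2 fold change of each gene between Xcr1/Clec9a and Cd209a cells without HR.7 (horizontal) against the log2 ratio of the same subsets in HR.7 (vertical), with genes that passed an adjusted p of 0.05 in red and the others in grey. Of the red genes, 55 of 62 on the right lie above 0 and 98 of 103 on the left lie below it.

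The gated cells as a whole stood apart from the monocytes of the same samples. Over 11 samples, with the sample as a block, 1409 of 6368 genes passed (22.1%), 538 higher and 871 lower in conventional dendritic cells (edgeR quasi-likelihood test). Of the list of genes shared by conventional dendritic cells, 10 of 15 tested were higher and 1 (Nfil3) lower, with a median log2 fold change of 1.88 against -0.09 over all genes. Flt3 had 72.5 to 364 CPM (median 130.4) in conventional dendritic cells, against 4.97 to 26.7 CPM (median 12.6) in monocytes (3.87 ± 0.21, adjusted p = 2.05e-10). Batf3 had 58.0 to 223 CPM (median 121) in conventional dendritic cells, against 2.18 to 12.8 CPM (median 8.20) in monocytes (4.15 ± 0.25, adjusted p = 5.09e-10). The classes did not overlap in either gene. The kynurenine enzyme Kmo (3.44 ± 0.28, adjusted p = 1.35e-08), the self-ligand receptor Slamf7 (4.32 ± 0.24, adjusted p = 2.05e-10), the creatine kinase Ckb (4.33 ± 0.34, adjusted p = 1.2e-08) and the cyclin Ccnd1 (4.21 ± 0.32, adjusted p = 7.35e-09) were also higher.

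The class II pathway was higher in the gated cells, with 8 of 10 tested genes up and none down, although H2-Ab1 of the same locus was part of the gate. Ciita had 90.6 to 486 CPM (median 246) in conventional dendritic cells, against 2.52 to 113 CPM (median 7.29) in monocytes (4.16 ± 0.35, adjusted p = 3.44e-08). H2-Aa had 2558 to 7617 CPM (median 5893) in conventional dendritic cells, against 30.2 to 1594 CPM (median 88.0) in monocytes (5.17 ± 0.46, adjusted p = 5.49e-08). The class I processing list had 5 of 15 genes up (Tap2, Tap1, Psmb9, Psmb8 and H2-K1) and none down.

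What fell relative to monocytes was the monocyte and granule programme. Vcan, a matrix proteoglycan of monocytes, had 0 to 30.7 CPM (median 0) in conventional dendritic cells, against 30.0 to 269 CPM (median 107) in monocytes (-5.76 ± 0.38, adjusted p = 1.12e-09), and Chil3, a secreted chitinase-like protein, fell as well (-3.23 ± 0.35, adjusted p = 7.59e-07). Of the alarmin and acute-phase list, 9 of 12 genes fell, among them S100a8, S100a9, Lcn2 and Hp, and all 10 neutrophil markers fell. Of 22 cell-cycle genes, 12 fell (Hmgb2, Stmn1, Top2a, Pcna and others) and none rose, and 7 of 14 glycolysis genes fell, with 1 (Pfkp) higher. The type 2 gene Clec10a rose (3.17 ± 0.58, adjusted p = 3.62e-04), but its log2 difference was -1.51 when the Xcr1/Clec9a cells alone were set against monocytes. Similarly the type 1 gene Ppt1 (1.86 ± 0.44, adjusted p = 0.00373) had -0.29 in Cd209a cells alone. With Xcr1/Clec9a cells alone 2945 genes passed, and with Cd209a cells alone 904.

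Plasmacytoid dendritic cells, the interferon-producing relatives picked here by at least 2 UMIs of Siglech, were compared in 9 samples, and 533 of 1650 genes passed (32.3%), 281 higher and 252 lower in conventional dendritic cells. All 8 tested class II genes were higher, with H2-Eb1 at 1565 to 6396 CPM (median 5079) in conventional dendritic cells, against 180.0 to 1473 CPM (median 378) in plasmacytoid dendritic cells (3.22 ± 0.28, adjusted p = 1.39e-06). Id2 had 72.5 to 1302 CPM (median 391) in conventional dendritic cells, against 0 to 94.0 CPM (median 32.4) in plasmacytoid dendritic cells (4.17 ± 0.60, adjusted p = 1.42e-04). Naaa (4.95 ± 0.71, adjusted p = 1.44e-04), the lysosomal lipase-like Plbd1 (4.42 ± 0.31, adjusted p = 1.25e-07), Pid1 (3.94 ± 0.28, adjusted p = 1.39e-07) and Ifitm3 (3.05 ± 0.41, adjusted p = 9.4e-05) were higher too. All 7 tested plasmacytoid markers were lower, among them Ly6d (-8.51 ± 0.59, adjusted p = 1.25e-07), the muscle-type cytochrome oxidase subunit Cox6a2 (-7.78 ± 0.27, adjusted p = 2.42e-10) and the homing receptor Ccr9 (-5.58 ± 0.30, adjusted p = 1.12e-08). The conventional cells were gated on H2-Ab1 and the plasmacytoid cells on Siglech. In this fit and that against monocytes, a gene could pass the filter on low counts through 1 class alone. The list counts of both fits therefore describe the genes, and nothing is read from their one-sidedness. Irf8 and Bcl11a, which both lineages use, were lower (-2.07 ± 0.39, adjusted p = 0.00118, and -2.16 ± 0.22, adjusted p = 5.31e-06). Flt3 did not pass (-0.20 ± 0.18, adjusted p = 0.435), with 72.5 to 235 CPM (median 130.3) in conventional dendritic cells, against 64.3 to 321 CPM (median 167) in plasmacytoid dendritic cells.

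HRO and WTO cells were compared in a fit of 9 samples with pool as a term. Of these groups, the samples with at least 10 gated cells were HRO.7, HRO.8, WTO.3 and WTO.4. Both HRO samples came from WBM_2, where WTO.4 (16 gated cells) was the only other sample fitted. Each fitted fold change and its p-value therefore set HRO.7 and HRO.8 against WTO.4 alone. WTO.3 does not enter them, and no spread between WTO samples is measured. Levels in WTO.3 are printed beside them. Of 2291 genes tested, 464 passed (20.3%), 223 higher and 241 lower in HRO. Since the HRO cells were all Xcr1/Clec9a cells and 25 of the 29 WTO cells Cd209a cells, all 13 tested genes of the type 1 list were higher and 13 of 19 of the type 2 list lower, and subset and group cannot be told apart. Some genes passed the filter on low counts only through the HRO samples, where they are high, so these counts and those below describe the genes and nothing is read from their one-sidedness. Leaving out HRO.7 or HRO.8 left 201 or 196 genes, and without a pool term 255 passed.

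Of the 25 genes of the interferon gamma list, 9 passed the filter on low counts, and Cxcl9, Iigp1 and Igtp among them had no UMI in the WTO cells, so no count or median of the list is given. The chemokine Cxcl9, which draws CXCR3-bearing T cells, had 307 and 286 CPM in HRO.7 and HRO.8, against 0 and 0 CPM in WTO.3 and WTO.4, at least 18.0-fold higher against a floor of 3 UMIs over the WTO samples (adjusted p = 5.44e-04). The immunity-related GTPase Iigp1 had 291 and 221 CPM in HRO.7 and HRO.8, against 0 and 0 CPM in WTO.3 and WTO.4, at least 16.3-fold higher (adjusted p = 0.00156). Both genes were at 0 in both WTO samples. Irf1 had 148 and 146 CPM in HRO.7 and HRO.8, against 24.3 and 21.7 CPM in WTO.3 and WTO.4 (2.93 ± 0.56, adjusted p = 0.00557), and Serpina3g, Igtp, Ifi47 and Ciita also passed and were higher. In HR.7, whose cells were not in this comparison, Cxcl9 had 143 CPM in Xcr1/Clec9a cells and 0 CPM in Cd209a cells. The type I interferon list was mixed, with 2 of 7 genes higher (Ifi47 and Phf11b) and 2 lower (Ifi27l2a and Trim30a).

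Class I processing rose in 11 of 14 tested genes and fell in none. Psmb8, a catalytic subunit of the immunoproteasome, had 1904 and 2044 CPM in HRO.7 and HRO.8, against 656 and 500.0 CPM in WTO.3 and WTO.4 (2.17 ± 0.25, adjusted p = 4.21e-04). Psmb9 had 1096 and 1264 CPM in HRO.7 and HRO.8, against 267 and 283 CPM in WTO.3 and WTO.4 (2.25 ± 0.38, adjusted p = 0.00314). The groups did not overlap in either. The class II list had 7 of 11 genes called higher, yet H2-Aa had 5715 and 6736 CPM in HRO.7 and HRO.8, against 7047 and 2558 CPM in WTO.3 and WTO.4, so the HRO samples lay below WTO.3 and above WTO.4, the WTO sample of their own pool. Without the pool term H2-Aa (0.21), Cd74 (0.21) and H2-Eb1 (0.69) no longer passed (adjusted p = 0.867, 0.867 and 0.553).

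Ly6a, the stem-cell antigen Sca-1 that interferons induce in blood cells, had 658 and 804 CPM in HRO.7 and HRO.8, against 48.6 and 0 CPM in WTO.3 and WTO.4 (adjusted p = 7.03e-05). It was the only 1 of 11 alarmin and acute-phase genes tested to rise, while S100a4, S100a6, S100a10, Wfdc17 and Wfdc21 fell. Of 12 glycolysis genes 6 rose, among them Ldha at 531 and 528 CPM in HRO.7 and HRO.8, against 243 and 116 CPM in WTO.3 and WTO.4 (2.38 ± 0.37, adjusted p = 0.00197), and none fell. None of 13 tested cell-cycle genes passed, and Mki67 had 546 and 692 CPM in HRO.7 and HRO.8, against 0 and 1188 CPM in WTO.3 and WTO.4 (-0.75 ± 0.30, adjusted p = 0.104). The immediate early genes Fos (3.66 ± 0.65, adjusted p = 0.00358), Jun and Jund rose, which dissociation of tissue can also raise, and their part in the other results was not tested. The receptors Ccr2 (-1.44 ± 0.22, adjusted p = 0.00181), Ifngr1 (-1.64 ± 0.28, adjusted p = 0.00320) and Il6ra (-2.09 ± 0.33, adjusted p = 0.00220) fell.

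Markers of other cells also differed between these samples, the erythroid ones mainly in WTO.3. The 9 erythroid markers measured summed to 6.06 and 6.04 CPM in HRO.7 and HRO.8, against 67917 and 0 CPM in WTO.3 and WTO.4, and all 9 were detected in gated cells. The 10 neutrophil markers, all detected, summed to 2592 and 5523 CPM in HRO.7 and HRO.8, against 8991 and 5616 CPM in WTO.3 and WTO.4. In the fit, which sets HRO.7 and HRO.8 against WTO.4 alone, the 4 erythroid genes tested had a median log2 fold change of 2.46. WTO.4 had no UMI of these genes. The HRO cells held 6, 7 and 1 UMIs of the globin genes Hbb-bs, Hbb-bt and Hba-a1, so nothing is read from the size of this median. The 9 neutrophil genes tested had a median of 1.83, with Camp higher and Mpo and Elane lower. For the neutrophil genes, the fit and the summed levels do not give one direction. The 10 monocyte markers summed to 1314 and 1123 CPM in HRO.7 and HRO.8, against 2406 and 3964 CPM. Their part in the differences was not tested.

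The monocytes of the same 4 samples showed how the HRO difference in dendritic cells compares with that in another myeloid cell. The test of the difference between both differences called 346 of 9590 genes (3.61%); with 2 residual degrees of freedom, its p-values rest mostly on the spread shared over genes. Ly6a in monocytes had 975 and 883 CPM in HRO.7 and HRO.8, against 4.89 and 48.3 CPM in WTO.3 and WTO.4. Cxcl9 in monocytes had 276 and 243 CPM in HRO.7 and HRO.8, against 0 and 4.59 CPM in WTO.3 and WTO.4. Like Iigp1, these genes were thus high in HRO cells of both classes. The acute-phase gene Saa3 differed between the classes: conventional dendritic cells had 34.1 and 10.1 CPM in HRO.7 and HRO.8, against 0 and 14.5 CPM in WTO.3 and WTO.4, and monocytes had 963 and 1129.5 CPM in HRO.7 and HRO.8, against 0 and 10.3 CPM in WTO.3 and WTO.4 (difference of differences -5.54 ± 1.77, adjusted p = 0.0488). The WTO dendritic cells held 2 UMIs of Saa3 in all, so the size of this difference is uncertain.

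The class II genes also differed between the classes. Cd74, the invariant chain, had 15029 and 17029.7 CPM in HRO.7 and HRO.8, against 17641 and 7319 CPM in WTO.3 and WTO.4 in dendritic cells, and 5146 and 4271 CPM in HRO.7 and HRO.8, against 391 and 239 CPM in WTO.3 and WTO.4 in monocytes (-3.04 ± 0.17, adjusted p = 4.98e-68). H2-Aa (-3.15 ± 0.20, adjusted p = 1.54e-50), H2-Eb1 (-2.98 ± 0.22, adjusted p = 1.29e-38) and Ciita (-2.21 ± 0.41, adjusted p = 8.24e-06) moved likewise. In monocytes the HRO samples lay above both WTO samples in each of these genes, whereas in dendritic cells the level was high in both groups. Dendritic cells were gated on at least 1 UMI of H2-Ab1 and monocytes were not. The part of the gate in the class II level of the dendritic cells, and in this difference, was not tested. In plasmacytoid dendritic cells of HRO.7 and HRO.8, Ly6a had 1909 and 1835 CPM and Iigp1 278 and 324 CPM, but Cxcl9 1.97 and 5.4 CPM.

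**Figure D4:**
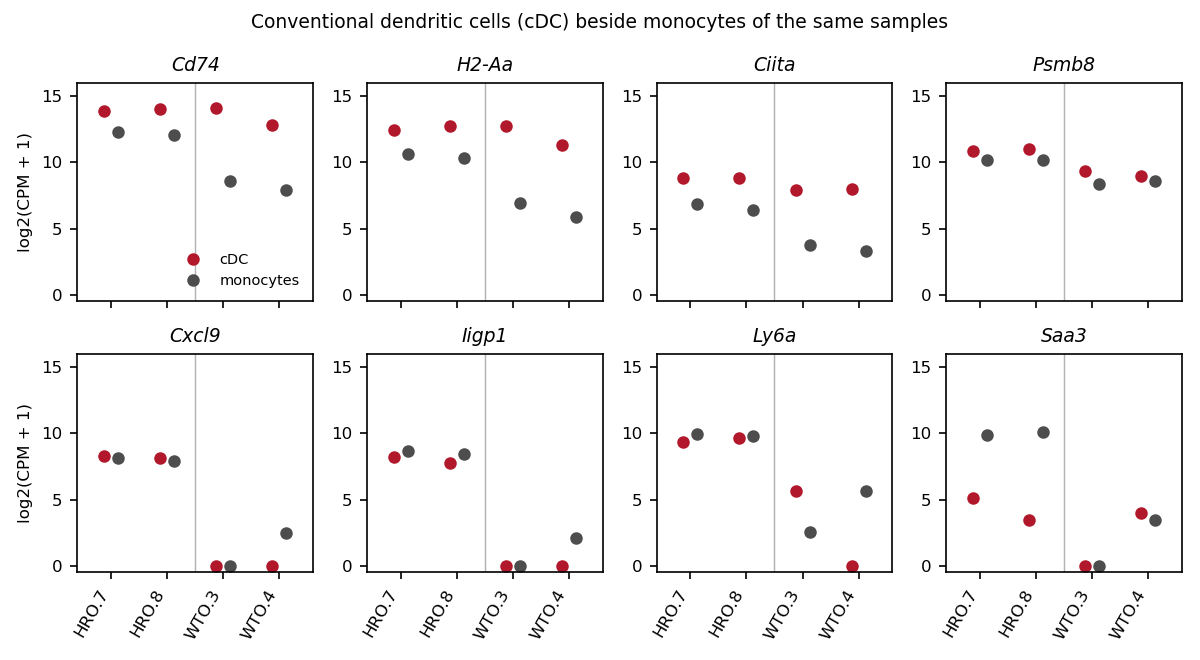
Levels, as log2(CPM + 1), of 8 genes in conventional dendritic cells (red) and monocytes (grey) of HRO.7 and HRO.8, left of the line, and WTO.3 and WTO.4, right of it. Cxcl9, Iigp1 and Ly6a are high in both classes in HRO.7 and HRO.8, Cd74, H2-Aa and Ciita differ between the groups mainly in monocytes, and Saa3 is high only in the monocytes of HRO.7 and HRO.8.

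The Xcr1/Clec9a cells of HRO.7 and HRO.8 can be set beside the same subset of HR.7, which came from another pool and has no replicate, so only sizes and 95% Poisson intervals for counting error are given. Of 5638 genes averaging at least 20 CPM outside the gate, 393 were at least 2-fold higher in both HRO samples (6.97%) and 628 at least 2-fold lower in both (11.1%). Of the type 1 list, 0 of 21 genes were 2-fold higher and 1 (Snx22) 2-fold lower, and of the list shared by conventional dendritic cells 0 of 19 were higher and 5 (Flt3, Zbtb46, Dpp4, Havcr2 and Ap1s3) lower. Irf8 had 2493 CPM (2433 to 2554) in HRO.7 and 2315 CPM (2222 to 2412) in HRO.8, against 2813 CPM (2619 to 3016) in HR.7. Of 16 interferon gamma genes measured among 25 listed, 8 were 2-fold higher and none lower, and of 16 class I processing genes 5 were higher and none lower. The filter averaged HRO.7, HRO.8 and HR.7, so genes high in HRO passed it more easily than genes high in HR.7. The counts of this comparison therefore describe the genes, and nothing is read from their one-sidedness. Iigp1 had 291 CPM (271 to 313) in HRO.7 and 221 CPM (193 to 253) in HRO.8, against 42.9 CPM (22.2 to 75.0) in HR.7. Psmb8 had 1904 CPM (1852 to 1958) in HRO.7 and 2044 CPM (1956 to 2135) in HRO.8, against 601 CPM (514 to 699) in HR.7. The intervals of HRO.7 and HRO.8 lay above that of HR.7 in both genes. Ly6a had 658 CPM (627 to 689.5) in HRO.7 and 804 CPM (749 to 862) in HRO.8, against 7.16 CPM (0.867 to 25.9) in HR.7. Cxcl9 had 307 CPM (286 to 329) in HRO.7 and 286 CPM (254 to 321) in HRO.8, against 143 CPM (102 to 195) in HR.7, which is present in all 3 samples.

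Other groups went in both directions. Of 14 type I interferon genes, 4 (Isg15, Zbp1, Xaf1 and Ifi47) were 2-fold higher and 1 (Slfn5) lower. Flt3 had 128 CPM (114 to 142) in HRO.7 and 117 CPM (96.5 to 140.0) in HRO.8, against 293 CPM (233 to 364) in HR.7. Ifngr1 had 108 CPM (95.5 to 121) in HRO.7 and 105 CPM (85.5 to 127) in HRO.8, against 562 CPM (477 to 657) in HR.7. Ccr2, the receptor by which monocytes leave the marrow, had 412 CPM (388 to 437) in HRO.7 and 329 CPM (294 to 367) in HRO.8, against 1220.2 CPM (1094 to 1357) in HR.7. All 3 were lower in HRO.7 and HRO.8 with no overlap of the intervals. Of 14 cytokine receptor genes 4 were 2-fold lower (Flt3, Csf1r, Ifngr1 and Il6ra) and none higher. None of 11 class II genes reached 2-fold in either direction, with H2-Aa at 5715 CPM (5624 to 5807) in HRO.7 and 6736 CPM (6576 to 6899.5) in HRO.8, against 5632 CPM (5357 to 5917) in HR.7. Of 22 cell-cycle genes 6 were 2-fold higher (Tyms, Cdk1, Ccnb2, Birc5, Stmn1 and Tk1) and none lower. Of 7 neutrophil genes, S100a8, S100a9, Camp, Ngp and Lcn2 were 2-fold higher, and 5 of 5 measured erythroid genes lower, whose part in the values was not tested.

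The chronic samples held mainly Cd209a cells and HRO.7 and HRO.8 only Xcr1/Clec9a cells, so subset and group cannot be told apart between them. Of 2291 genes, 62 passed (2.71%), 47 higher and 15 lower in chronic. No pool held both groups, so the pool term carries the difference through WTO.3 of WBM_1 and WTO.4 of WBM_2, 1 sample a pool. The WTY samples do not enter the difference itself. The count was 340 without the pool term, 1 with samples of at least 5 cells, and 16 (without WTY.5) to 120 (without HRO.5) with 1 sample left out. Of the type 2 list 10 of 19 genes were higher and none lower (Itgam, Clec4a1, Clec10a, Sirpa and Cx3cr1 among them), while Cst3 (-3.35 ± 0.57, adjusted p = 0.0149), Psmb8 (-2.94 ± 0.39, adjusted p = 0.00339) and the redox protein Txn1 (-3.71 ± 0.41, adjusted p = 0.00155) were lower. The apolipoprotein Apoe averaged 589 CPM in chronic and 7.37 CPM in HRO (adjusted p = 6.8e-04), and Ly6a 32.3 and 731 CPM (adjusted p = 0.0320). The granule genes Elane and Mpo were higher in chronic as well, beside summed neutrophil markers of 30608 and 36331 CPM in HRO.5 and HRO.6, against 2592 and 5523 CPM in HRO.7 and HRO.8, whose part in the result was not tested.

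Within the Cd209a cells alone, the chronic samples could be set against WTO and WTY, in a fit of 7 samples chosen after the data were seen. With pool as a term, the chronic samples, both of WBM_1, are set against WTO.3 and WTY.3 of that pool alone. WTO against WTY is likewise WTO.3 against WTY.3. Almost nothing passed, but with 1 WTO and 1 WTY sample in these differences this says little about the groups. Against WTO, 1 of 1244 genes was called (0.0804%), S100a8 of the alarmin pair S100a8/S100a9 (1.87 ± 0.21, adjusted p = 0.0493), while 68 had an unadjusted p under 0.05. Against WTY none was called (0.0%; 42 with an unadjusted p under 0.05, and 0 with DESeq2). WTO against WTY gave 2 (0.161%), S100a8 (-2.39 ± 0.23, adjusted p = 0.0182) and S100a9 (-2.47 ± 0.30, adjusted p = 0.0466). S100a8 had 14076 and 18366 CPM in the chronic samples HRO.5 and HRO.6, 4230.3 and 1719 CPM in WTO.3 and WTO.4, and 23982, 527 and 486 CPM in WTY.3, WTY.4 and WTY.5. The samples of WBM_1 were the high ones, and the plasmacytoid dendritic cells of WBM_1, which should lack S100a8, had 30384, 44448, 4873 and 12514 CPM in HRO.5, HRO.6, WTO.3 and WTY.3; the part of free RNA in these values was not tested. Without the pool term, neither comparison called S100a8.

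In all gated cells, WTO against WTY called none of 2291 genes (0.0%; edgeR, 138 with an unadjusted p under 0.05). With pool as a term, this difference is that of WTO.3 from WTY.3 in WBM_1 alone, so the lack of calls says little about the groups. HRY had at least 10 gated cells in HRY.4 alone, so its planned fits were not possible. With samples of at least 5 cells, HRY against WTY called 1 of 1578 genes (152 with an unadjusted p under 0.05) and HRO against HRY none (151 with an unadjusted p under 0.05). Tet2, the gene named for the chronic samples, had 21.2 and 24.8 CPM in the gated cells of HRO.5 and HRO.6, 45.1 and 42.3 CPM in HRO.7 and HRO.8, 24.3 and 79.7 CPM in WTO.3 and WTO.4 and 61.4 to 149 CPM in WTY. The mutation is not described in the sources used here and the counts come from the 3′ end of transcripts, so these levels check nothing about the label.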

How the data were processed

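Single-cell 3′ libraries of hashtag-labelled marrow were made with a 10x kit, per the labels' protocols. The deposited matrices hold whole UMI counts per gene and barcode and were written by Cell Ranger 3.0.0 and 3.1.0, per the file headers. The submitters' processing notes name bcl2fastq, Seurat and the mm10 build; the sources used here name no other filter. The hashtag matrices are deposited counts of antibody tags.

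Of 78720 barcodes, 6928 had under 300 genes and 15115 had 10% or more mitochondrial UMIs. Hashtags were called with HTODemux (Seurat 5.3.0, centred log-ratio, positive quantile 0.99), leaving 43024 cells with 1 hashtag. Scrublet marked 8.46% of cells in WBM_1, 2.61% to 3.12% in WBM_2 and none in WBM_3 and WBM_4, where it did not work, so no cell was removed as a doublet beyond the hashtag calls. UMIs were summed per sample and class and tested with edgeR 4.0.16 (TMM, filterByExpr, quasi-likelihood test, Benjamini-Hochberg adjustment, threshold 0.05) in R 4.3.3, with at least 10 cells a sample, or 5 in the subset fit. Group and subset fits had pool as a term, and class fits the sample as a block. CPM are counts per 1000000 UMIs of the summed profile. Shares were tested by exact permutation (scipy 1.17.1), and intervals are 95% and cover counting error only. The gates, gene lists and members were chosen with earlier results of these data known. The subset fit, the Cd209a-cell fits and the gate without Cd209a were added after seeing the data; the planned subset fit with sample as a block was not possible, since HR.7 alone held both subsets. Genes were named by size and p (8 largest rises and falls a group comparison at 20 CPM or more, 10 a class comparison at 50 CPM or more, and members of the lists). H2-K1, Tap2, Pcna, Snx22, Tk1, Irf4, Mgl2 and the genes that lost their sign in HR.7 were named outside it, after their values were seen. Gene coordinates are GENCODE M21 on GRCm38.

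Alternatives were DESeq2 1.42.0, no filter on low counts, no pool term, other cell minimums, a gate of 3 UMIs, thinning, a mitochondrial limit of 5%, hashtags normalized within each cell, Scrublet scores, and leaving out each sample or pool. On simulated counts, the HRO and WTO fit recovered 1.72%, 39% and 87% of genes changed by 1, 2 and 3 on the log2 scale, among 2115 genes, and the Cd209a-cell fit of chronic and WTO 1.43%, 22.6% and 61.3%, among 1215. The simulation used a fixed, assumed spread between samples that was not estimated from these data.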

Additional observations from a re-analysis of the deposited data

Results flagged for a closer look

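In 60 genes of those the naming rule takes, the difference between HRO and WTO was itself different in conventional dendritic cells and in monocytes of the same samples (edgeR quasi-likelihood test of the interaction, adjusted p under 0.05). The 48 of them with at least 3 UMIs in each class and group, a minimum chosen after the data were seen, are given here, 17 with positive and 31 with negative values; the other 12 had 0 to 2 UMIs in 1 class and group, which leaves the size of the difference uncertain. Each value is the log2 difference in conventional dendritic cells minus that in monocytes, over HRO.7, HRO.8, WTO.3 and WTO.4. The HRO dendritic cells were all Xcr1/Clec9a cells and the WTO dendritic cells mainly Cd209a cells, so subset and group cannot be told apart.

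The type 1 list genes given here had positive values, with 4.20 for Ppt1, 2.82 for Naaa and 2.44 for Cst3. Genes of the shared dendritic cell list went both ways, with 2.14 for Irf8, 2.08 for Cd24a and 1.99 for Id2, but -2.64 for Zeb2. The checkpoint receptor Btla had 3.81. Metabolic and antigen-processing genes had 1.25 for Ldha, 1.49 for Pfkp, 1.05 for Pgam1, 1.03 for Psmb9 and 1.24 for Pdia3. Genes of granule, alarmin and other secreted proteins had 2.89 for Camp, 2.69 for Ngp, 2.93 for Lcn2, 1.64 for S100a9 and 2.02 for Chil3 on the positive side, and -4.39 for Mpo, -4.33 for Elane, -3.19 for Ctsg, -3.08 for Wfdc17 and -2.56 for S100a4 on the negative side.

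The class II genes had negative values, with -3.04 for Cd74, -3.15 for H2-Aa, -2.98 for H2-Eb1 and -2.21 for Ciita, in dendritic cells that were gated on H2-Ab1. Genes of type 2 dendritic cells, monocytes and other myeloid cells had -3.91 for Clec10a, -5.07 for Clec4a3, -4.97 for Clec4b1, -1.80 for Klf4, -1.48 for Cx3cr1, -3.50 for Fn1, -1.94 for F13a1, -1.48 for Ms4a6c, -3.53 for Adgre1, -1.19 for Il6ra and -1.88 for Fcer1g. Interferon-induced genes had -1.15 for Ifi27l2a, -1.28 for Bst2, -3.07 for Oasl2 and -2.43 for Ifih1. Others had -5.48 for Cd7, -2.81 for Nkg7, -5.26 for Rgcc and -5.28 for Fcor. The globin genes Hbb-bt and Hbb-bs had -5.94 and -4.17, beside summed erythroid markers of 6.06 and 6.04 CPM in HRO.7 and HRO.8, against 67917 and 0 CPM in WTO.3 and WTO.4. Without WBM_1, and so without WTO.3, the value of Hbb-bt turned to 6.25 (adjusted p = 0.810).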

How the results depend on the processing

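The gated cells were few, at most 42 a sample outside HRO.7, HRO.8 and HR.7. In the simulated counts, the HRO and WTO fit recovered 1.72% of changes of 1 and 39% of changes of 2 on the log2 scale. The spread of those counts was assumed, and some changes under 2 were called in the deposited counts. Of the counts of called genes and share differences under alternatives, 169 stayed near the main count or kept the sign of the share difference. Among the counts, 33 were well above the main count and 25 well below it, and 5 share differences turned or fell to 0. Of the values of single genes, 2474 kept direction and side of the threshold, 317 no longer passed and 10 turned. The causes were not tested. Called genes for HRO against WTO (464) numbered 274 with DESeq2, 255 without a pool term, 65 at 5 cells a sample and 196 to 759 with each sample left out (196 without HRO.8, 201 without HRO.7, 759 without HRO.5); leaving out WTO.4 could not be fitted. WTO against WTY (0) had 16 with no filter, 4 at 3 gate UMIs, 3 by Scrublet scores, 5 with hashtags within cells and 0 to 20 with each sample left out (20, 18, 5 and 3 without HRO.5, HRO.6, HRO.7 and HRO.8). Chronic against HRO (62) had 102 with no filter, 340 without a pool term, 1 at 5 cells and 16 (without WTY.5) to 120 (without HRO.5), with 19 without WTY.4, 35 without HRO.8 and 38 without HRO.7.

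In Cd209a cells, chronic against WTO (1) had 5 with no filter, 0 without a pool term, 5 at 5 cells and 0 (without 1 of the WTY samples) to 18 (without HRO.6; 13 without HRO.5). Chronic against WTY (0) had 1 with no filter and 0 to 25 (without HRO.6; 6 without HRO.5), and WTO against WTY (2) had 4 with DESeq2, 0 without a pool term, 4 at 5 cells and 0 (without WTY.4 or WTY.5) to 14 (without HRO.5; 12 without HRO.6). The subset comparison (166) had 102 with DESeq2, 324 with no filter, 372 at 10 cells, 266 with HR.7 and 48 (without HRO.8; 50 without HRO.7) to 314 (without HRO.9). Against monocytes (1409) it was 2612 with no filter, 2945 in Xcr1/Clec9a cells and 904 in Cd209a cells. Against plasmacytoid cells (533) it was 1858, 1568 and 268, and 234 (without WBM_2) to 1193 (without WBM_1; 318 without WBM_3) with pools left out. The interaction (346) had 147 with DESeq2.

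Values that turned were Camp in HRO against WTO by Scrublet scores (-0.25), Cd74 (0.23), H2-Aa (0.33) and H2-Eb1 (0.026) in chronic against HRO without a pool term, Cd24a (-0.24), Fcer1g (0.066) and Ppt1 (-0.29) against monocytes in Cd209a cells, Clec10a (-1.51) in Xcr1/Clec9a cells, Klf4 (-0.21) against plasmacytoid cells in Xcr1/Clec9a cells, and Hbb-bt (6.25) in the interaction without WBM_1. Share differences that turned were HRO minus WTO (-0.211) and HRO minus HRY (-0.142) after thinning, and HRO minus HRY (-0.0910) and chronic minus HRO (-0.0383) with cells holding other lineages' UMIs left out. The Xcr1/Clec9a share of WTO minus WTY fell to 0 after thinning. With the number in the sample name as a replicate block, WTO against WTY called 9 genes; the numbers are not said to mark shared mice.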
